A study of Mus musculus with 12 samples.

Results

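The nuclear-encoded genes of oxidative phosphorylation were examined in bone marrow-derived macrophages (BMDMs), macrophages grown from mouse marrow with the growth factor mCSF. Members were the protein-coding mouse genes whose symbol begins with Nduf, Uqcr, Cox4 to Cox8 or Atp5, together with Sdha, Sdhb, Sdhc, Sdhd, Cyc1 and Cycs. The rule used names alone, and it found 95 members among the 48526 gene rows of the count table. Of these, 86 encode subunits or cytochrome c and 9 encode assembly or coupling factors (Ndufaf1 to Ndufaf8 and Atp5s). By complex, the subunits comprised 36 of complex I, 4 of complex II, 9 of complex III, 11 of complex IV, 9 variant forms of complex IV subunits and 16 of complex V, with cytochrome c as 1 further member.

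BMDMs came from 3 female C57Bl/6J mice and were used after 7 days in culture. For 16 hr a culture of every mouse got no ligand, Wnt3a at 100 ng/mL, IL4 at 100 pg/mL, or Wnt3a with IL4, which gives 12 RNA-seq samples in 4 groups of 3. All groups had been grown in 10 ng/mL mCSF, and the age of each mouse is not given: the methods state only a range in weeks for the marrow donors. In each mouse the Wnt3a and Wnt3a+IL4 columns of the table share reads: in 0 of 48526 genes did the Wnt3a column fall outside 1 to 2 times the Wnt3a+IL4 column. The Wnt3a column minus the Wnt3a+IL4 column is called the difference here, and the Wnt3a+IL4 column minus the difference is called the remainder. Both parts come from cells treated with Wnt3a, and the labels do not say which of them also received IL4.

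The 12 libraries that result (Untreated, IL4, difference and remainder of 3 mice) held 13342492 to 17453377 counts. Levels are CPM (counts scaled to a common library size by TMM, which makes libraries comparable). Log2 fold changes, standard errors (SE) and adjusted p-values come from edgeR's quasi-likelihood test with Benjamini-Hochberg adjustment over all 12421 genes that had at least 10 counts in at least 3 libraries. A gene is called where the adjusted p is below 0.05. In bulk RNA, fewer expressing cells and less RNA per cell cannot be told apart.

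Of 8 macrophage markers, 8 passed the count filter, 5 were called higher and 1 lower in the Wnt3a parts, and their summed level was 43944 to 68560 CPM across the libraries. Neutrophil markers, 6 of 10 of which were tested, summed to 32.2 to 76.5 CPM, with 5 called lower in the Wnt3a parts. The 8 stromal markers summed to 5.81 to 30.7 CPM, with 4 tested, 1 called higher and 2 lower, and the lymphoid and erythroid markers to at most 0.433 and 0.229 CPM, with 0 of 4 and 0 of 3 tested. The 4 dendritic markers summed to 0.752 to 1.62 CPM in the libraries without Wnt3a and to 2.83 to 21.0 CPM in those with it. Of these 4, Ccr7 was called higher (log2 fold change 4.35), Zbtb46 was not, and Flt3 and Xcr1 were too low to test. The part of these cells in the results that follow was not tested. Counts from genes on the mitochondrial chromosome were 0.504% to 0.898% of each library and differed between mice within a group, a property that is returned to below.

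Oxidative phosphorylation is the final stage of respiration, carried out in the inner mitochondrial membrane. Complex I takes electrons from NADH and complex II takes them from succinate. Complex III hands these electrons to cytochrome c, complex IV passes them to oxygen, and complex V, the ATP synthase, uses the resulting proton gradient to make ATP. Most subunits are encoded in the nucleus and a small set in mitochondrial DNA, so the complexes are assembled from products of both genomes. In macrophages, activation by microbial products is known for a shift towards glycolysis and activation by IL4 for sustained respiration.

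The members were well expressed. Of the 89 that passed the count filter, Cox6b1 had the highest level per kilobase of exon (335 CPM per kb), followed by Cox4i1 at 277 and Cox6a1 at 264 CPM per kb, all of complex IV. Per kilobase, the F1 subunits Atp5a1 and Atp5b of ATP synthase stood at 210 and 181 CPM per kb. Within complex II, which holds its 4 subunits in equal number, the levels were 130 CPM per kb for Sdhd, 74.7 for Sdha, 73.7 for Sdhb and 47.8 CPM per kb for Sdhc. Exon length here counts every annotated exon of the gene, so a gene with long rare transcripts reads too low on this scale.

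Cytochrome c and some small subunits were counted at levels far below those of their complexes. Cycs, the cytochrome c gene, stood at 0.260 CPM per kb with 8 to 19 counts per library. Atp5g2 and Atp5g1, which encode the same mature c subunit of ATP synthase as Atp5g3, stood at 0.385 and 0.646 CPM per kb against 72.3 for Atp5g3. Atp5l had 3 to 10 counts per library and was not tested. In some of these genes a large share of 50-base stretches of coding transcripts also occurs in another gene, in most cases a processed pseudogene: 28.5% in Cycs, 38.3% in Atp5g2 and 23.0% in Cox7c, against 0% in Atp5g3. In Atp5l the share was 84.8%. Some well counted members had shares like those of Cycs, Atp5g2 and Cox7c (39.7% in Ndufs3, 37.6% in Atp5f1, 36.9% in Atp5h and 32.0% in Cox5a). These lay below the share of Atp5l, and the low gene Atp5g1 had 11.1%. Reads that fit several places may be lost to the count, so these low levels are uncertain, and the part of such reads in the levels was not tested.

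The data show that most of these genes were higher in the cells that had received Wnt3a. The 2 Wnt3a parts were first set together against both groups without Wnt3a (6 libraries against 6). By this comparison, 52 of 89 tested members were called higher (background over all tested genes 16.5%) and 2 were called lower (background 16.1%). The median log2 fold change of the members was 0.26, against −0.02 over all tested genes. Of the members, 80 of 89 were above 0, against 46.5% of all tested genes. The changes were small: only Cox6a2 exceeded a doubling, and it rests on few counts. Leaving out mouse 3 reduced the number called to 24 of 89 in both directions, the largest drop among the fits without 1 mouse or 1 library.

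**Figure D1:**
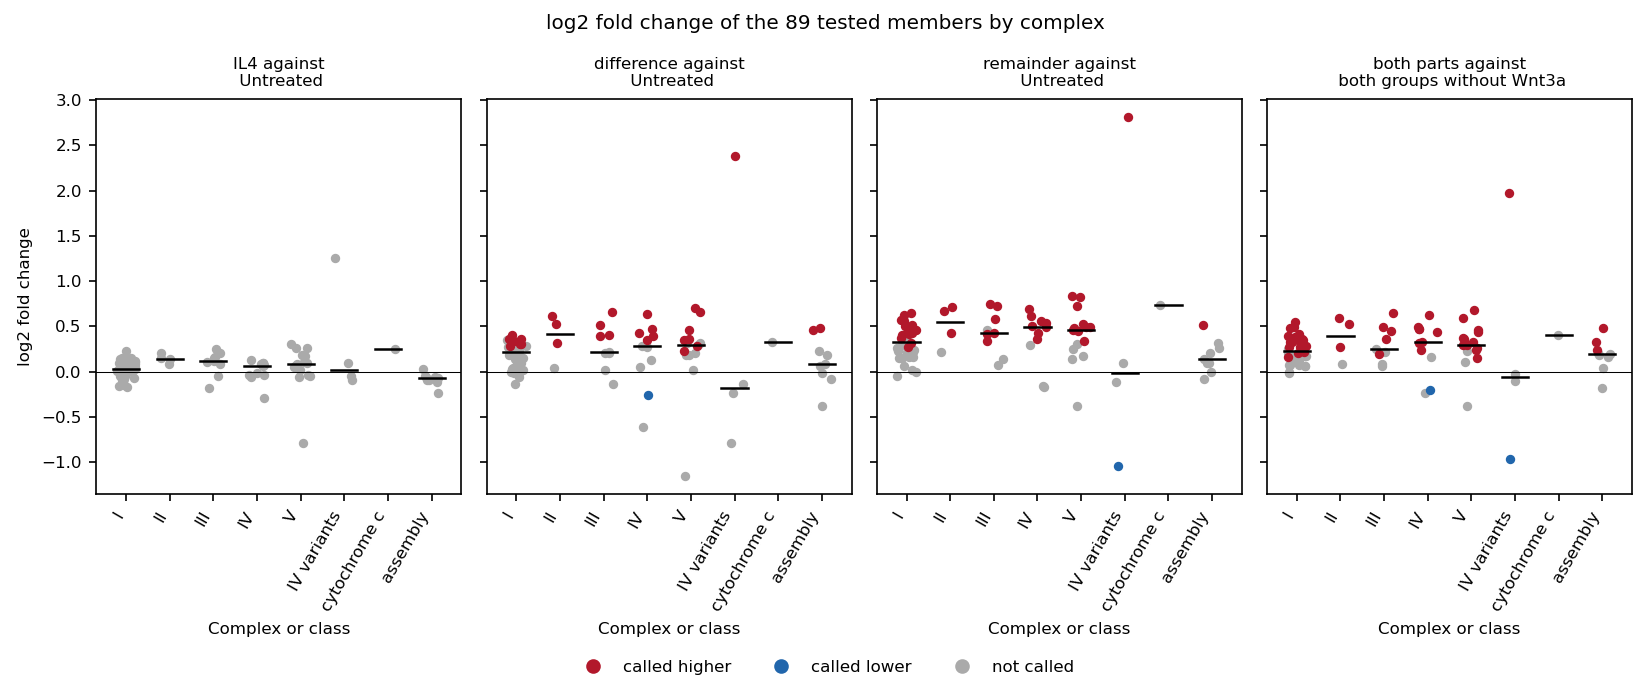
Log2 fold change of the 89 tested members (vertical axis) by complex or class (horizontal axis) in 4 comparisons. Each point is a member, coloured by its call, and each bar is the median of the class. With IL4 alone the points lie around 0 and 0 of 89 are called. In the 3 comparisons with Wnt3a parts the class medians of complexes I to V lie above 0.

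The summed level of all 95 members makes the size of the shift visible in each library. In Untreated cells it was 6690 CPM in mouse 1, 7663 in mouse 2 and 6927 in mouse 3. With IL4 it was 8229, 7549 and 7179 CPM in the same mice. The difference held 8060, 8788 and 9216 CPM, and the remainder 10653, 8647 and 9398 CPM. The difference of mouse 1 lay below the IL4 library of mouse 1, and otherwise each Wnt3a part exceeded both libraries without Wnt3a of its mouse. The remainder of mouse 1 was the highest library, 1.59 times the Untreated library of that mouse. Over the 3 mice, mean levels were 1.08 times Untreated with IL4, 1.22 times in the difference and 1.35 times in the remainder.

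**Figure D2:**
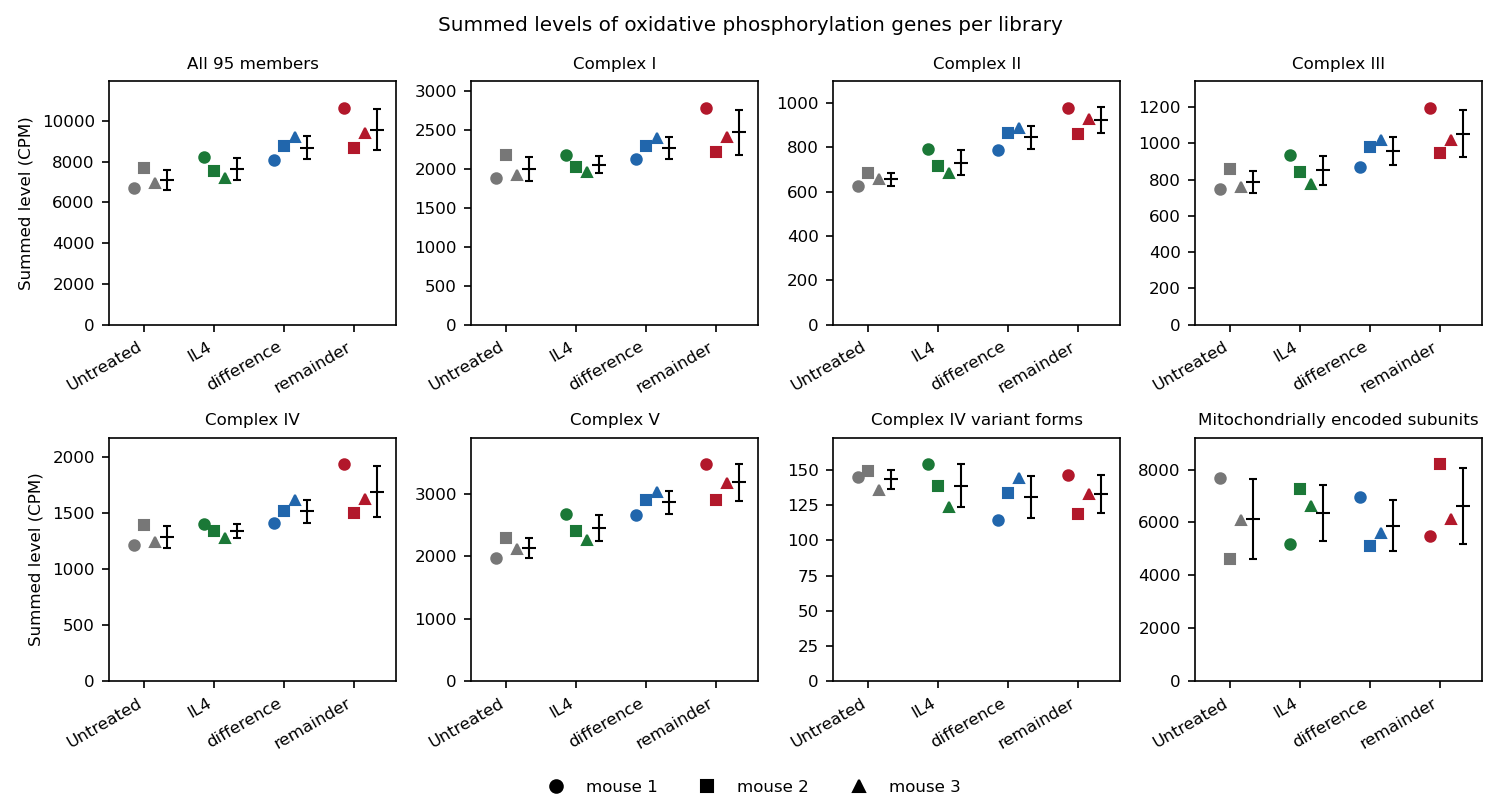
Summed level in CPM (vertical axis, from 0) per library, for all members, each complex, the variant forms of complex IV and the mitochondrially encoded subunits. Symbols mark the 3 mice, colours the 4 groups, and the black mark with bars is the mean ± SD (n = 3). For complex II every Wnt3a part except the difference of mouse 1 lies above all libraries without Wnt3a. The mitochondrially encoded subunits spread widely within every group.

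By complex, the summed levels were as follows. The sum over complex V was 1.34 times Untreated in the difference and 1.5 times in the remainder, and that over complex II was 1.29 and 1.41 times. Complex III stood at 1.21 and 1.34 times, complex IV at 1.18 and 1.32 times and complex I at 1.14 and 1.24 times. The variant forms of complex IV summed to 0.912 and 0.927 times Untreated, but that sum is nearly all Cox7a2l (a mean of 139.7 of 143.5 CPM in Untreated cells), which was not called, while Cox6a2 was called higher and Cox6b2 lower. Whether these ratios differ between complexes was not tested, since members of a complex are not replicates.

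By calls in the comparison of both parts, 12 of 15 tested complex V subunits were higher, with a median log2 fold change of 0.30. Complex II had 3 of 4 higher (median 0.40), complex III 5 of 9 (median 0.25), complex IV 8 of 11 with 1 lower (median 0.33) and complex I 20 of 36 (median 0.23). Of the 9 assembly and coupling factors, 3 were higher (median 0.19). All these lie beside the background of 16.5%.

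For 23 of 89 members the levels of the 6 Wnt3a parts lay wholly above those of the 6 libraries without Wnt3a (background 8.32%), and for 1 of 89 they lay wholly below (background 6.91%). The 23 include Sdhb and Sdhd of complex II, Uqcrq, Uqcr10 and Cyc1 of complex III, Cox5a, Cox5b, Cox6b1, Cox7a2, Cox7b and Cox8a of complex IV, and Atp5b, Atp5c1, Atp5j, Atp5k and Atp5o of complex V. The 1 below is Cox6b2.

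**Figure D3:**
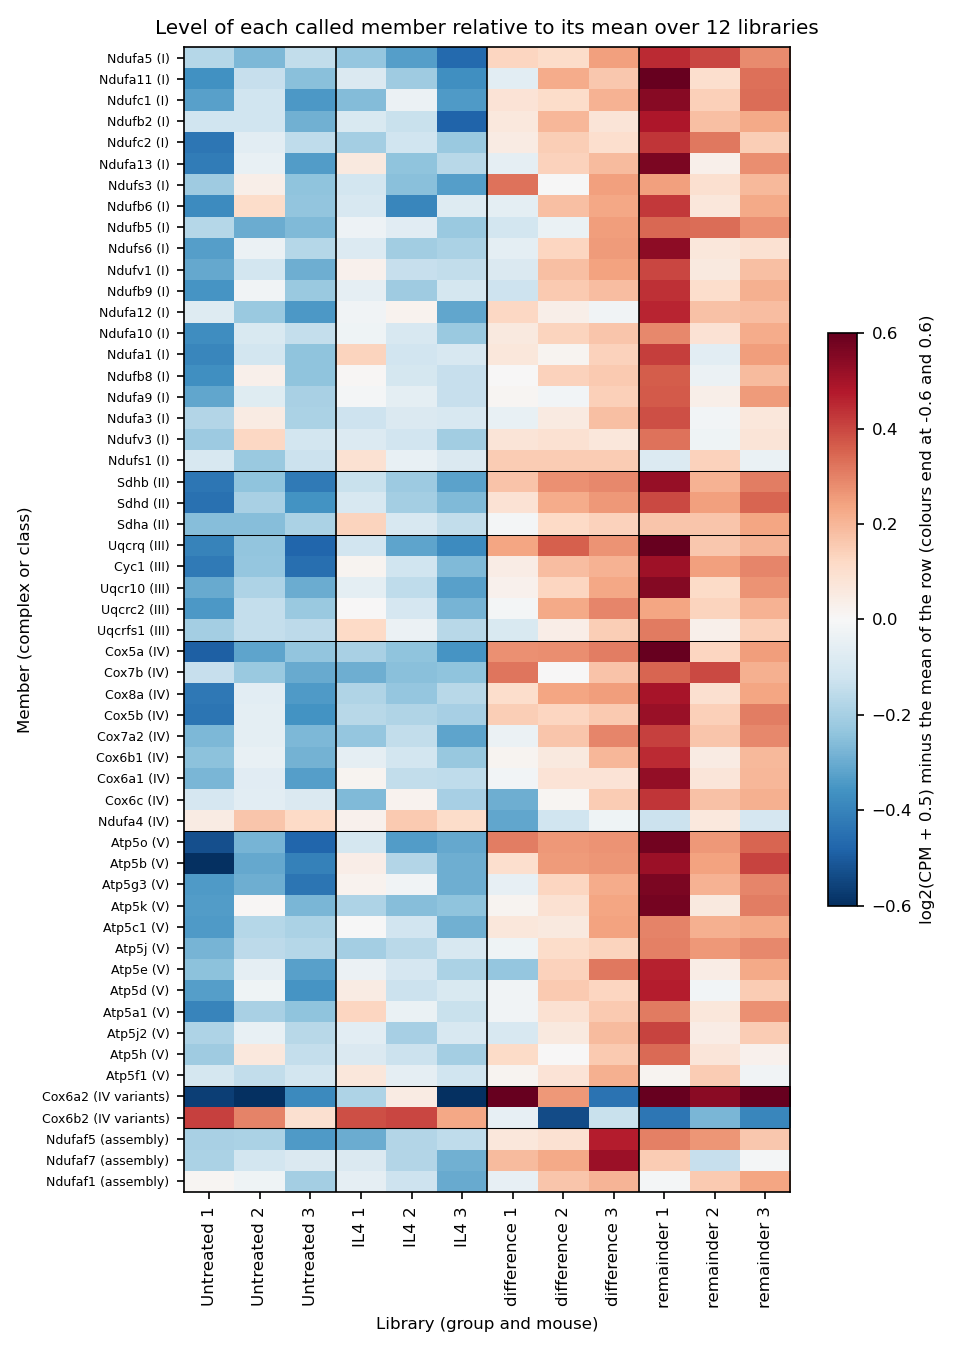
Level of each of the 54 members called in the comparison of both parts (rows, grouped by complex and ordered by log2 fold change within it) in the 12 libraries (columns), as log2(CPM + 0.5) minus the mean of the row. Red is above and blue below the member's own mean, and colours end at −0.6 and 0.6. The remainder of mouse 1 is the column with most of the deepest red, while Ndufa4 and Cox6b2 run the other way, lower with Wnt3a.

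Because many members moved together, the stretch around the start of their genes is shown for 6 of them. RefSeq (GRCm38.p6) gives 300 bases (250 before and 50 after the start) for 77 of the 95 members, as 82 promoters. These were searched on both strands for short forms of 4 motifs known from promoters of respiratory genes: GCGCATGCG (NRF1), CCGGAAG (ETS factors such as GABPA), AAGGTCA (ERR) and AAGATGGC (YY1). Capitals mark a match to any of them on either strand, and the genes were chosen after the data were seen, 5 that carry a match and were called higher, and Ndufa4, which was called lower.

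Sdhb (chr4:140961021-140961320, + strand): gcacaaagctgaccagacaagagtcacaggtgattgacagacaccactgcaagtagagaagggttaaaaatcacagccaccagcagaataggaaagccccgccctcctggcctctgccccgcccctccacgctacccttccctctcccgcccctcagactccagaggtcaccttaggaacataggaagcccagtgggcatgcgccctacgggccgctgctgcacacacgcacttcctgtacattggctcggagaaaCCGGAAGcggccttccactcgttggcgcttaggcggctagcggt
Sdhd (chr9:50603800-50604099, − strand): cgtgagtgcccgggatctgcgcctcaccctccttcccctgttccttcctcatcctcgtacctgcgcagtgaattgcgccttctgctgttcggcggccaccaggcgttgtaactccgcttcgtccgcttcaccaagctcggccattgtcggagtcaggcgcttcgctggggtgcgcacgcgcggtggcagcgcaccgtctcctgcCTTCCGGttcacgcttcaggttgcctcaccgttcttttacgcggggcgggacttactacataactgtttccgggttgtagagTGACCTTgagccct
Cox8a (chr19:7217567-7217866, − strand): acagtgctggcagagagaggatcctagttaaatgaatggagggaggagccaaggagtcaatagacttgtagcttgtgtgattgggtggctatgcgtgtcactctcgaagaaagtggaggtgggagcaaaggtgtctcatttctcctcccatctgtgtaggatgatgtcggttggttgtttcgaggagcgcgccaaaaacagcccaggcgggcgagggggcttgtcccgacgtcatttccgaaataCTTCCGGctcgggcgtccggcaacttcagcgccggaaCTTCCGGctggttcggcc
Atp5j (chr16:84834927-84835226, − strand): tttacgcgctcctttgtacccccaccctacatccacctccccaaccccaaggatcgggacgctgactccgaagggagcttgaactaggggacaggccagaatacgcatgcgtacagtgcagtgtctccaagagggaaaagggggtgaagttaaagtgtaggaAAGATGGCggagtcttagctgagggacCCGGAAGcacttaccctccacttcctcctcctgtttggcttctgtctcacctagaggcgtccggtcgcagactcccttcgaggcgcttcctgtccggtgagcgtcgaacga
Atp5k (chr5:108434350-108434649, − strand): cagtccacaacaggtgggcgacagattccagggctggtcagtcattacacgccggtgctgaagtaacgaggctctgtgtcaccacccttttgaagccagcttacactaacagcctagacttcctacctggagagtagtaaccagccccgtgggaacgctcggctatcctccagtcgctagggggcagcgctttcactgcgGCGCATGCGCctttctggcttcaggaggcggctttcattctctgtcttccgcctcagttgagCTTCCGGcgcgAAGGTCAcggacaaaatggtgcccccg
Ndufa4 (chr6:11907401-11907700, − strand): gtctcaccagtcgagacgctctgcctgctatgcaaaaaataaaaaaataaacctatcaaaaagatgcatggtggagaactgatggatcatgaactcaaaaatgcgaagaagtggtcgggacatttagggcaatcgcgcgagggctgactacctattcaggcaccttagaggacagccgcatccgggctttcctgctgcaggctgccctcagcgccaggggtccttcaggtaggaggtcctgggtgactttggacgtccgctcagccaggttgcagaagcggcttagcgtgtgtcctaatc

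In Atp5k the NRF1 form begins 50 bases before the start and reads the same on the other strand 1 base on, so its matches overlap, and an ETS and an ERR form follow it 12 and 23 bases after the start. Atp5j has a YY1 form 88 and an ETS form 61 bases before the start. Gabpa, a gene on the other strand that itself encodes an ETS factor, overlaps 12.7% of the exon bases of Atp5j. Cox8a has ETS forms that begin 5 bases before and 32 bases after the start, Sdhd has an ETS form that begins 46 bases before and an ERR form that begins 36 bases after it, and Sdhb has 1 that begins 6 bases after it. Ndufa4 holds none of these letters in this window.

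Over the whole list, the NRF1 form was present for 11 of 77 members (14.3%), with a match in any of their promoters. Counted per promoter, it was in 13.4% of the 82 promoters of members against 1.75% of all 32851 promoters of this length. The ETS form was in 21.95% against 8.86%, the YY1 form in 13.4% against 2.75% and the ERR form in 9.76% against 4.72%. Among the 44 members with a promoter that were called higher, 12 had the ETS form, 8 the YY1 form, 5 the ERR form and 4 the NRF1 form. Among the 28 tested members with a promoter that were not called, 5 had the ETS form, 3 the YY1 form, 2 the ERR form and 6 the NRF1 form. Whether these shares differ was not tested. A match is a description of letters and shows no binding.

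Complex II, succinate dehydrogenase, is the enzyme that the respiratory chain shares with the citrate cycle, and it has no mitochondrially encoded subunit. Sdhb (chr4:140961203-140979193, GRCm38) encodes its iron-sulphur subunit. Its level was 119, 136 and 120 CPM in Untreated cells and 147, 138 and 129 CPM with IL4. It was 181, 195 and 197 CPM in the difference and 232, 186 and 200 CPM in the remainder. All 6 Wnt3a parts lay above all 6 other libraries. The log2 fold change of both parts was 0.59 (SE 0.06, adjusted p = 6e-06).

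Sdhd (chr9:50596357-50603812), which encodes a membrane anchor of complex II, ran between 115 and 147 CPM without Wnt3a and between 168 and 207 CPM with it, so these ranges did not overlap either. Its log2 fold change was 0.52 (SE 0.06, adjusted p = 9.2e-06). Sdha, the flavoprotein subunit, was 256, 257 and 268 CPM in Untreated cells, 335, 286 and 276 CPM with IL4, 303, 332 and 337 CPM in the difference and 343, 343 and 361 CPM in the remainder. The IL4 library of mouse 1 lay within the range of the difference, and the log2 fold change was 0.27 (SE 0.06, adjusted p = 0.0022), a call lost without mouse 3 (0.24, adjusted p = 0.076). Sdhc, the other membrane anchor, was not called. Its levels were 135 to 165 CPM without Wnt3a and 135 to 197 CPM with it, and its log2 fold change was 0.09 (SE 0.08, adjusted p = 0.41).

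Complex V held the largest change among well counted members. Atp5o (chr16:91925214-91931687) encodes the stalk subunit OSCP, which joins the catalytic head to the stator. Its level was 74.7, 89.0 and 77.6 CPM in Untreated cells and 100, 85.4 and 87.2 CPM with IL4. In the difference it was 134, 130 and 130 CPM, and in the remainder 161, 129 and 138 CPM. The ranges with and without Wnt3a did not overlap, and the log2 fold change was 0.68 (SE 0.07, adjusted p = 3.1e-06). Annotated genes on the other strand cover 35.6% of its exon bases, and the strand setting of the counting is not given in the sources used here, so reads of those genes cannot be told apart from its own.

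Atp5b (chr10:128083273-128090391), the catalytic beta subunit, was the member with the highest mean CPM over the 12 libraries. It stood at 478, 603 and 562 CPM in Untreated cells, 765, 660 and 607 CPM with IL4, 799, 890 and 896 CPM in the difference and 1065, 881 and 987 CPM in the remainder. Its log2 fold change was 0.59 (SE 0.08, adjusted p = 3.8e-05). The alpha subunit Atp5a1 showed 0.29 (SE 0.07, adjusted p = 0.0038), and its call was lost without mouse 3 (adjusted p = 0.115). The gamma subunit Atp5c1, the central shaft, showed 0.37 (SE 0.06, adjusted p = 3e-04).

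Of the 3 genes for the c subunit, only Atp5g3 has enough counts for a clear value. It rose from 114 to 157 CPM in the libraries without Wnt3a to 149 to 229 CPM in those with it, with a log2 fold change of 0.46 (SE 0.08, adjusted p = 0.00035). Atp5g2, with 2 to 21 counts per library, had a log2 fold change of −0.38 (SE 0.33, adjusted p = 0.43). Atp5if1, the inhibitor of the synthase, is named Atpif1 in the annotation used and so falls outside the rule. In the comparison of both parts Atp5if1 was called higher, with a log2 fold change of 0.21. Against Untreated cells alone it was called in neither part, while against IL4 it was called higher in the difference.

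Complex III passes electrons from ubiquinol to cytochrome c. Uqcrq (chr11:53427922-53430831), a small subunit bound near cytochrome b, was 66.1, 74.3 and 62.8 CPM in Untreated cells and 80.8, 70.2 and 67.3 CPM with IL4. It was 103, 112 and 106 CPM in the difference and 142, 97.9 and 101 CPM in the remainder. The ranges with and without Wnt3a did not overlap, and the log2 fold change was 0.65 (SE 0.09, adjusted p = 6e-05).

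Cyc1 (chr15:76343523-76346260), the haem-bearing cytochrome c1, ran from 68.9 to 95.8 CPM without Wnt3a and from 97.5 to 135 CPM with it (log2 fold change 0.50, SE 0.07, adjusted p = 6.2e-05). The core subunit Uqcrc2 showed 0.36 (SE 0.07, adjusted p = 0.00076). The Rieske protein Uqcrfs1 showed 0.20 (SE 0.07, adjusted p = 0.036), which was called in 5 of the 15 fits that leave out a mouse or a library. Its call was lost with mouse as a block (adjusted p = 0.0566) and under total count scaling (adjusted p = 0.0873). The other core subunit, Uqcrc1, showed 0.21 (SE 0.08, adjusted p = 0.061), and Uqcrb 0.09 (SE 0.09, adjusted p = 0.49). Cycs was not called, with a log2 fold change of 0.41 (SE 0.24, adjusted p = 0.23) on its few counts.

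In complex IV the common subunits rose, and a few members departed from them. Cox5a (chr9:57521274-57532426), an early partner of the catalytic core, was 59.3, 66.9 and 70.7 CPM in Untreated cells and 72.8, 70.5 and 65.3 CPM with IL4. It was 101, 101 and 103 CPM in the difference and 127, 91.5 and 99.5 CPM in the remainder. The ranges with and without Wnt3a did not overlap (log2 fold change 0.62, SE 0.08, adjusted p = 2e-05). A gene on the other strand covers 12.8% of its exon bases.

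Cox7b, Cox8a, Cox5b and Cox7a2 showed log2 fold changes of 0.49, 0.48, 0.47 and 0.43, each called in all 15 fits that leave out a mouse or a library. Cox6b1 and Cox6a1 showed 0.33 and 0.32, and both calls were lost without mouse 3 (adjusted p = 0.109 and 0.105). Cox6c showed 0.24 (SE 0.08, adjusted p = 0.034) and was called in 7 of those 15 fits. Its adjusted p was 0.0517 with mouse as a block and 0.109 under total count scaling. Cox4i1, the regulatory subunit that binds ATP, was not called: it was 364 to 462 CPM without Wnt3a and 377 to 573 CPM with it, with a log2 fold change of 0.16 (SE 0.09, adjusted p = 0.20).

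Ndufa4 (chr6:11900292-11907497) was first assigned to complex I and is now placed in complex IV. It was 91.5, 99.4 and 96.4 CPM in Untreated cells and 90.3, 98.7 and 95.5 CPM with IL4, against 71.1, 81.4 and 87.0 CPM in the difference and 80.9, 92.5 and 82.7 CPM in the remainder. The remainder of mouse 2 overlaps the lower edge of the libraries without Wnt3a. Its log2 fold change was −0.21 (SE 0.06, adjusted p = 0.017), and the call was lost without mouse 2 (adjusted p = 0.067) or without mouse 3 (adjusted p = 0.138). Cox7c, another small subunit, had a log2 fold change of −0.24 (SE 0.15, adjusted p = 0.25) on 31 to 62 counts per library.

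The variant forms of complex IV subunits, which elsewhere replace a common form in certain tissues or conditions, were counted at low levels in these macrophages, with the exception of Cox7a2l. Cox7b2 and Cox8c had 0 counts in all 12 libraries. Cox4i2 had 0 to 3, Cox8b 0 to 4 and Ndufa4l2 0 to 1, so these 5 were not tested. Cox6b2, the testis form beside the common Cox6b1, had 15 to 24 counts in each library without Wnt3a and 7 to 14 in each Wnt3a part. Its level fell from 0.940 to 1.29 CPM to 0.427 to 0.801 CPM, with ranges that did not overlap (log2 fold change −0.96, SE 0.21, adjusted p = 0.0027). This stands beside 193 to 321 CPM of Cox6b1.

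Cox6a2, the heart and muscle form beside the common Cox6a1, had 0 to 8 counts without Wnt3a and 3 to 23 with it. Its fitted log2 fold change of 1.97 (SE 0.46, adjusted p = 0.0045) depends on those few reads, and its call was lost without mouse 1 (1.66, adjusted p = 0.071). At most 1.32 CPM of Cox6a2 stood beside 146 to 264 CPM of Cox6a1. Cox7a1, the muscle form beside Cox7a2, showed −0.03 (SE 0.17, adjusted p = 0.93). Cox7a2l, which takes part in supercomplexes of complexes III and IV, showed −0.10 (SE 0.08, adjusted p = 0.33), at 111 to 150 CPM over all libraries.

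**Figure D4:**
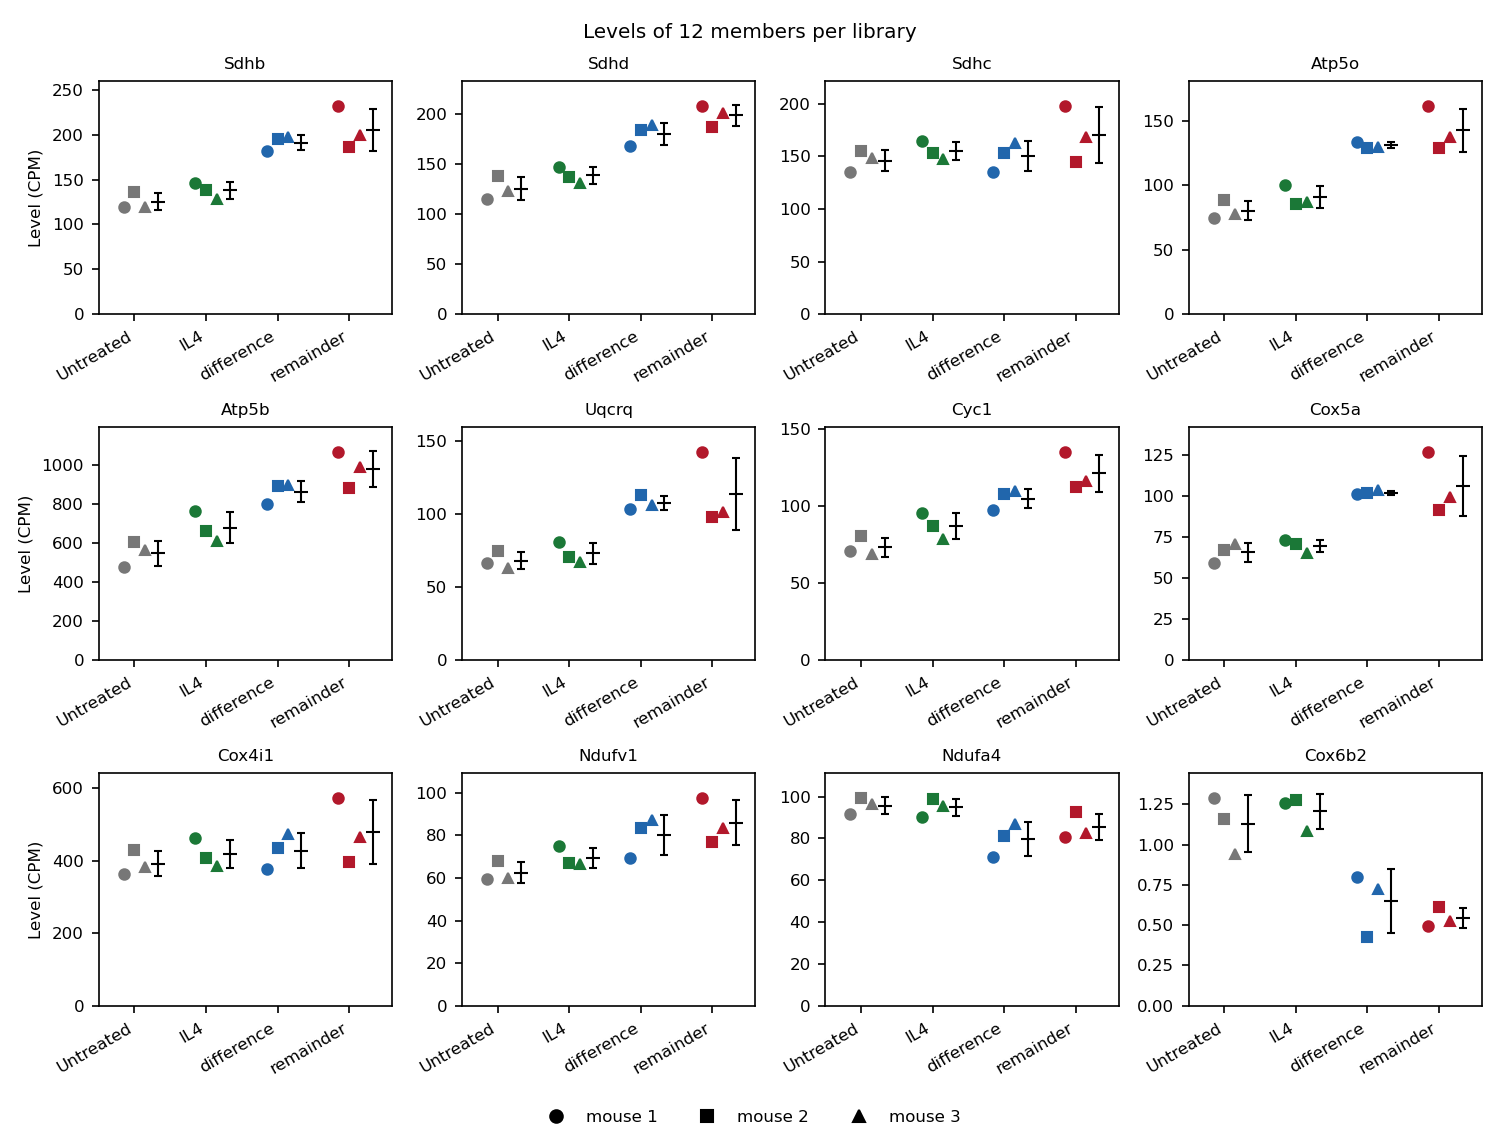
Level in CPM (vertical axis, from 0) of 12 members in each library. Symbols mark the 3 mice, colours the 4 groups, and the black mark with bars is the mean ± SD (n = 3). For Sdhb, Sdhd, Atp5o, Atp5b, Uqcrq, Cyc1 and Cox5a the 6 Wnt3a parts lie above the 6 other libraries. Sdhc and Cox4i1 overlap between groups, and Ndufa4 and Cox6b2 are lower with Wnt3a.

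Complex I, with the most members, was called higher in 20 of 36 and lower in 0 of 36. The flavin-bearing core subunit Ndufv1 (chr19:4007384-4012806), where NADH enters, ran from 59.5 to 74.9 CPM without Wnt3a and from 69.4 to 97.6 CPM with it. Its log2 fold change was 0.33 (SE 0.08, adjusted p = 0.0039), and its call was lost without mouse 3 (adjusted p = 0.113). The large iron-sulphur subunit Ndufs1 showed 0.16 (SE 0.06, adjusted p = 0.042), a call that held in 4 of the 15 fits leaving out a mouse or a library. It was also lost with mouse as a block (adjusted p = 0.0694), under total count scaling (0.255) and with all genes of at least 1 count (0.0899).

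Among the accessory subunits of complex I, Ndufa9 showed 0.27 (SE 0.07, adjusted p = 0.0071) and lost its call without mouse 3 (adjusted p = 0.166). Ndufa5 had the largest log2 fold change of the complex at 0.55 (SE 0.07, adjusted p = 2.5e-05). It is named here after its values were seen. Its levels were 16.0 to 20.1 CPM without Wnt3a and 24.1 to 30.5 CPM with it, with no overlap. Of the 36 subunits of complex I, 34 had a log2 fold change above 0, and the lowest value was −0.02. Ndufa6 showed 0.08 (SE 0.06, adjusted p = 0.37) and Ndufb3 0.08 (SE 0.08, adjusted p = 0.48), neither of them called.

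Of the assembly factors that the rule includes, Ndufaf7 showed 0.33 (SE 0.09, adjusted p = 0.0099) and lost its call without mouse 3 (adjusted p = 0.154). Ndufaf2, Ndufaf4, Ndufaf6 and Ndufaf8 were not called, with log2 fold changes of 0.17, 0.19, 0.18 and −0.18. For Ndufaf2, a gene on the other strand covers 65.6% of the exon bases.

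The 2 Wnt3a parts were also set against Untreated cells 1 at a time. In the difference, 30 of 89 members were higher (background 11.8%) and 1 was lower (background 11.4%), with a median log2 fold change of 0.24 against −0.01 over all tested genes. The 1 lower was Ndufa4 (−0.26, SE 0.09, adjusted p = 0.039), a call lost with all genes of at least 1 count (adjusted p = 0.0834), with only the groups compared (0.0742) and without mouse 1 (0.0938), mouse 2 (0.156) or mouse 3 (0.143). The count in both directions fell from 31 to 6 without mouse 3 and to 17 without either the Untreated library of mouse 1 or the difference of mouse 3. Sdhb, Atp5o and Cox5a had log2 fold changes of 0.61, 0.71 and 0.64 in this part.

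In the remainder, 46 of 89 members were higher (background 13.6%) and 1 was lower (background 11.7%), with a median of 0.36 against −0.02 over all tested genes. The 1 lower was Cox6b2 (−1.04, SE 0.30, adjusted p = 0.02), a call lost by DESeq2 (adjusted p = 0.0972), with all genes of at least 1 count (0.0724) and without mouse 1 (0.171), mouse 2 (0.0637) or mouse 3 (0.126). Without mouse 1 the count of 47 in both directions became 28, and without mouse 3 it became 18. Sdhb, Atp5o and Cox5a had log2 fold changes of 0.72, 0.83 and 0.69 here, and Atp5b reached 0.84 (SE 0.11, adjusted p = 6.3e-05). These parts share the Untreated libraries, so their values stand side by side and no overlap is drawn from them.

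Within each of the 3 mice most members stood above Untreated in both parts. In the difference, 65 of the 89 tested members were above Untreated in mouse 1, 61 in mouse 2 and 78 in mouse 3. In the remainder the numbers were 81, 61 and 80. Such counts within a mouse, here and below, were not made over all tested genes. Against the IL4 library of the same mouse, 44, 75 and 81 members were higher in the difference and 83, 74 and 82 in the remainder. Mouse 1 thus showed no shift of the difference over its IL4 library, with a summed ratio of 0.979, while mouse 2 stood at 1.16 and mouse 3 at 1.28.

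Set against IL4 cells as a group, the remainder had 37 of 89 members higher (background 10.6%), and the difference 16 of 89 (background 10.0%), with 1 lower in each. In either direction, 20.3% of all tested genes were called in each of these comparisons. Both counts depend on single mice. For the remainder, 38 in both directions became 10 without mouse 3, 25 without the IL4 library of mouse 3 and 24 without the remainder of mouse 1. For the difference, 17 in both directions became 0 without mouse 3 and 28 without mouse 1. It became 11 without the IL4 library or the difference of mouse 2, 10 without the difference of mouse 3 and 26 without the remainder of mouse 2.

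IL4 alone called 0 of 89 members in either direction (background 3.4%). By edgeR, 5 of 89 had an unadjusted p below 0.05, all higher, against 14.4% of all tested genes, and DESeq2 also called 0. The median log2 fold change was 0.05. The highest values in well counted members were 0.31 for Atp5b (SE 0.11, adjusted p = 0.18), 0.27 for Atp5a1 (SE 0.09, adjusted p = 0.18), 0.27 for Atp5g3 (SE 0.11, adjusted p = 0.26) and 0.25 for Cyc1 (SE 0.10, adjusted p = 0.23). The lowest were Atp5g2 at −0.79, Cox7c at −0.29, Ndufaf4 at −0.23, Uqcrb at −0.18 and Ndufa6 at −0.17, none of them called. The mice went apart: in mouse 1, 72 of 89 members were above Untreated, in mouse 2 only 30 and in mouse 3 51. The 95% interval of the log2 fold change lay within −0.5 and 0.5 for 73 of 89 members.

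The remainder and the difference did not part by any call either: 0 of 89 members (background 5.25%), and 0 by DESeq2. By edgeR, 8 of 89 (8.99%) had an unadjusted p below 0.05, against 19.0% of all tested genes. Without the difference of mouse 3 or without the remainder of mouse 2, 1 of 89 was called. Yet 82 of 89 had a log2 fold change above 0, with a median of 0.15. The mice differed in this: in mouse 1, 81 members were higher in the remainder, against 35 in mouse 2 and 51 in mouse 3. The highest values were 0.77 for Atp5g2, 0.46 for Cox7c, 0.43 for Cox6a2 and 0.41 for Cycs, all on few counts, and 0.34 for Ndufaf6. The lowest were −0.32 for Ndufaf7, −0.25 for Cox6b2, −0.23 for Ndufaf2, −0.15 for Ndufs1 and −0.09 for Ndufb3. For 65 of 89 members the 95% interval lay within −0.5 and 0.5.

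Whether IL4 acts differently in the presence of Wnt3a was tested as an interaction under both assignments of the parts. With the remainder taken as Wnt3a+IL4, 0 of 89 members were called (background 0.105%) and 0 by DESeq2, with a median of 0.09. By edgeR, 7 of 89 (7.87%) then had an unadjusted p below 0.05, against 12.7% of all tested genes. With the difference taken as Wnt3a+IL4, 0 of 89 were called (background 7.33%) and 4 by DESeq2, with a median of −0.19. By edgeR, 13 of 89 (14.6%) then had an unadjusted p below 0.05, against 18.8% of all tested genes. In that assignment 9 were called without mouse 2, 6 without the remainder of mouse 2, 2 without the Untreated library of mouse 2, 2 without the IL4 library of mouse 3 and 1 without the difference of mouse 3. The shares over all tested genes in these fits are not given here, so the counts are not read as particular to the members.

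The share of mitochondrially encoded counts and the summed member level both differed between mice within groups. In Untreated cells the shares were 0.898%, 0.504% and 0.687% in mice 1, 2 and 3, the reverse of the order of the summed member levels. In the remainder they were 0.552%, 0.866% and 0.650%, again the reverse of the member levels. In the IL4 group (0.534%, 0.817% and 0.749%) mouse 1 was lowest in share and highest in members, but mouse 2 was highest in share and mouse 3 lowest in members. In the difference (0.741%, 0.524% and 0.586%) mouse 1 was highest in share and lowest in members, but mouse 2 was lowest in share and mouse 3 highest in members. The ranges of the 4 groups overlapped. Its part in the results was not tested beyond the fit that follows.

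When this share was added to the fit as a covariate, a choice made after the shares were seen, more was called. Both parts against both groups without Wnt3a then had 61 of 89 members higher and 3 lower, while 40.5% of all tested genes were called in either direction. The remainder against the difference had 20 of 89 higher and 0 lower, with 18.2% of all tested genes called. These 20 include Atp5b (0.24, adjusted p = 0.013), Cyc1 (0.25, adjusted p = 0.019) and Sdhd (0.18, adjusted p = 0.033). IL4 against Untreated had 3 of 89, Atp5b (0.32, adjusted p = 0.0035), Atp5a1 (0.27, adjusted p = 0.011) and Cyc1 (0.26, adjusted p = 0.033), with 7.22% of all tested genes called. The interaction with the difference taken as Wnt3a+IL4 had 23 of 89 lower, with 16.9% of all tested genes called. What this share reflects was not tested.

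The subunits encoded in mitochondrial DNA showed no called shift, and their levels varied widely within each group. Of 13 such genes, 6 are listed at 0 in all 12 libraries, among them mt-Co2, mt-Co3 and mt-Atp6, which every respiring cell uses, so the list is counted in part. By edgeR 0 of the 7 others were called in the comparison of both parts, with a median log2 fold change of −0.11. Their summed level ran from 4612 to 7674 CPM in Untreated cells, from 5090 to 6973 CPM in the difference and from 5473 to 8222 CPM in the remainder. The groups overlapped throughout. With such a spread, a shift as small as that of the nuclear members might not be called, so whether these genes follow them is not settled.

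Other genes of the same organelle, from lists made for this work, are given beside the same background of 16.5% higher and 16.1% lower. Of 77 tested mitochondrial ribosome genes, 22 were higher and 0 lower in the comparison of both parts, with a median of 0.15. Of 38 tested assembly factors outside the rule, 7 were higher and 1 lower (median 0.12). Of 16 tested carriers and other respiratory enzymes, 10 were higher and 1 lower (median 0.20), although their summed level was 0.944 times Untreated in the difference and 0.990 times in the remainder. Slc25a5, the main ADP/ATP carrier of many tissues, showed 0.72 (SE 0.07). The 1 lower was the uncoupling protein Ucp2 at −0.40.

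Of 15 tested regulators of mitochondrial genes, 2 were higher and 2 lower (median −0.15), no larger a share than among all tested genes (16.5% and 16.1%). Ppargc1b, a coactivator known for driving respiratory genes, had a log2 fold change of 1.11 in this comparison, of 0.94 with IL4 alone, of 1.33 in the difference and of 1.82 in the remainder. Lrpprc, which stabilises mitochondrial mRNA, showed 0.30. Nrf1 and Polg were the 2 lower, at −0.29 and −0.27.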

How the data were processed

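RNA of 12 BMDM cultures was sequenced as single reads, and per the labels the authors used FastQC 0.11.7, Trimmomatic 0.36, STAR 2.6.0, SAMtools 1.9, HTSeq 0.11.1 and DESeq2 1.24.0 with build mm10. The authors deposited raw read counts per Ensembl gene, and the strand setting is not given in the sources used here. Symbols from GENCODE vM21 (GRCm38) matched 48144 of 48526 rows (99.2%).

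The Wnt3a and Wnt3a+IL4 columns of each mouse were split into difference and remainder, and the 12 libraries entered 1 fit in edgeR 4.0.16 (R 4.3.3) with TMM scaling, without a mouse term. The count minimum was 10, reached in 3 or more libraries. The SE is the absolute log2 fold change divided by the square root of F. The script was tested on simulated data. Each library is 1 culture of 1 mouse, the total counts per library set the precision, and intervals cover only the spread between these samples.

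The labels pair samples by mouse. Deviations of samples of a mouse from their group means correlated at −0.51 to 0.51 over genes. In mice 1, 2 and 3, Untreated and the difference correlated at 0.51, 0.35 and −0.02. Untreated and the remainder correlated at −0.27, −0.51 and 0.05, and IL4 and the remainder at 0.33, 0.14 and −0.03. The other pairs lay between −0.25 and 0.19. What these values reflect was not tested. Alternatives comprised DESeq2 1.42.0, other scalings, filters and thresholds, mouse as a block, and fits lacking a mouse or a library. The share of mitochondrially encoded counts as a covariate was added after seeing the data.

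Named members were fixed examples per complex, variant forms beside their common form, and the 5 highest and 5 lowest log2 fold changes in each of 5 comparisons. Other members were named after their values were seen, and 1 fixed example is not reported here. The members and lists were chosen with earlier results of these data known. Promoters are from RefSeq (GRCm38.p6).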

Additional observations from a re-analysis of the deposited data

How the results depend on the processing

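Counts are members called of 89, and the cause of each change was not tested. For the fits that leave out a mouse or a library, here and above, the share over all tested genes is not given. Nor is it given for the other alternatives, except for the covariate. Those counts are therefore not read as particular to the members. No called value changed direction under any alternative run. At an adjusted p threshold of 0.01, the difference against Untreated had 12, the remainder against IL4 22 and the difference against IL4 8. Asking in addition for a log2 fold change beyond 1 or −1 left 1 in the difference, 2 in the remainder, 1 in both parts together, 1 in the remainder against IL4 and 0 in the difference against IL4. With the columns as labelled, 50 were called in place of the 31 of the difference. With all genes of at least 1 count, the remainder against the difference had 1, and the interaction with the difference taken as Wnt3a+IL4 had 3; that interaction had 4 by DESeq2 and 1 under total count scaling. Fitting only the groups compared gave 26 for the difference against IL4. With the share of mitochondrially encoded counts as a covariate, chosen after seeing the data, IL4 against Untreated had 3, the remainder against the difference 20, the difference against IL4 28 (29.6% of all tested genes called) and that interaction 23. With 1 mouse or library left out, counts ran from 6 to 40 for the difference against Untreated, 18 to 60 for the remainder, 0 to 1 for the remainder against the difference, 24 to 59 for both parts, 10 to 52 for the remainder against IL4, 0 to 28 for the difference against IL4 and 0 to 9 for that interaction, and stayed at 0 for IL4 against Untreated and for the other interaction. With mouse as a replicate block, the counts were 26 for the difference, 43 for the remainder, 47 for both parts, 32 for the remainder against IL4 and 13 for the difference against IL4, and 0 elsewhere. Total count scaling moved the median log2 fold change of all genes to −0.10 in the difference and −0.13 in the remainder, with members at 0.15 and 0.25, and called 27 (24 higher, 3 lower) and 42 (40 higher, 2 lower). In the comparison of both parts with both groups without Wnt3a, 54 members were called. Of these, 47 were called in all 8 other settings and 23 in all 15 fits that leave out a mouse or library. Of the 8 settings, fitting only the groups compared uses all 4 groups here, so it repeats the main fit and could change no call. Depth limits Cycs, Atp5g2, Cox6a2 and Cox6b2, each with at most 24 counts per library.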

Other observations

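Genes of the citrate cycle and of pyruvate entry, which feed electrons to complexes I and II, were higher in 13 of 21 and lower in 0 of 21 in the comparison of both Wnt3a parts with both groups without Wnt3a, with a median log2 fold change of 0.24, beside 16.5% higher and 16.1% lower among all tested genes. Acod1, which diverts aconitate to itaconate, an inhibitor of succinate dehydrogenase, had a log2 fold change of 4.77 (SE 0.15). Its level was 13.8 to 27.0 CPM without Wnt3a and 404 to 676 CPM with it. Pcx, which makes oxaloacetate from pyruvate, showed 1.17 (SE 0.13), at 5.17 to 9.64 CPM without and 12.3 to 19.2 CPM with Wnt3a. Mdh2, Cs and Idh3a showed 0.49, 0.45 and 0.42.

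Ppargc1b, a coactivator of respiratory genes, had a range of levels of its own in each of the 4 groups. It was 3.22, 3.21 and 2.69 CPM in Untreated cells, 7.13, 5.17 and 5.26 CPM with IL4, 7.49, 8.36 and 7.19 CPM in the difference and 10.1, 10.9 and 11.4 CPM in the remainder, and these 4 ranges did not overlap. Against Untreated cells its adjusted p by edgeR was 0.0041 with IL4, 3.5e-05 in the difference and 1.3e-06 in the remainder. The steps between neighbouring groups with a ligand were not called. In the difference against IL4 and in the remainder against the difference, 0 of 15 tested regulators were called higher. This gene was picked out after its values were seen, and such separate ranges were not counted over all tested genes.

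Atp5g2 had 2 to 21 counts per library beside 13 to 54 for Gm10175, a processed pseudogene that shares 50-base stretches with it. The pseudogene had more counts in every library but that of Untreated mouse 3, where it had 17 against 21. For Cycs the order was the other way, with 8 to 19 counts beside 0 to 5 over 8 pseudogene rows.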
